A study of Mus musculus with 20 samples.

Results

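*Ide*, *Fgfbp3* and 6 genes that flank or separate them on mouse chromosome 19 (*Pcgf5*, *Hectd2*, *Ppp1r3c*, *Tnks2*, *Btaf1* and *Cpeb3*) were followed library by library in the corneal epithelium at 4 ages. The 8 genes were taken by symbol from the 24552 genes of the table. They were selected on their normalized counts, since earlier results of these data had shown *Ide* and *Fgfbp3* low in the same libraries, so their own values are a description here and carry no p-value. The question was whether *Ide* and *Fgfbp3* fell into low and high libraries together while the genes around them did not.

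RNA was sequenced from the 3′ end in 20 libraries, 5 for each age. Each library held the epithelium debrided from both corneas of 1 naïve, wild-type, female C57BL/6J mouse, so that the 5 libraries of an age were 5 separate animals. The groups were labelled 2 to 3 months (called 2-month or young), 12 to 13 months, 18 to 19 months and 24 to 25 months. The mice of the study were bought from Jackson Laboratories, aged in house or received from the National Institute of Aging, and the labels do not say which source each library had, so that source and age cannot be told apart. Values are normalized read counts, that is, reads divided by the size factor of the library.

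*Ide* encodes insulin-degrading enzyme, a zinc metalloprotease that cleaves insulin, amyloid beta and other small peptides. *Fgfbp3* encodes a secreted carrier that binds fibroblast growth factors and releases them from the matrix. In C57BL/6J mice a segment that carries *Ide* and *Fgfbp3* is known to be present in more copies in some animals than in others. Only RNA was measured in these libraries, so the number of DNA copies was not tested. Nor was the extent of that segment, including whether it carries the genes annotated between the pair.

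In the GRCm38 RefSeq annotation *Fgfbp3* (NCBI gene 72514) lies on the minus strand at chr19:36917550-36919599 and *Ide* (NCBI gene 15925) on the minus strand at chr19:37268743-37334544. The genes are separated by 349.1 kb, in which *Btaf1* (chr19:36926079-37014057), *Cpeb3* (chr19:37019341-37207620) and *March5* (chr19:37207540-37224457) are annotated as protein-coding. *Pcgf5* (chr19:36348329-36460970), *Hectd2* (chr19:36554126-36621135), *Ppp1r3c* (chr19:36731731-36736604) and *Tnks2* (chr19:36834129-36893477) lie on the far side of *Fgfbp3*. *Cpeb3* and *March5* overlap by 81 bases, and the strand setting of the counting is not given in the sources used here.

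The promoter windows of *Ide*, of *Fgfbp3* and of *Btaf1*, whose start lies 6.5 kb from that of *Fgfbp3*, are shown as the sequences at the starts of the pair and of the closest neighbour. Each runs from 250 bases before to 50 bases after the RefSeq start in GRCm38.p6, 5′ to 3′ on the strand of the gene, at chr19:37334495-37334794 for *Ide*, chr19:36919550-36919849 for *Fgfbp3* and chr19:36925829-36926128 for *Btaf1*. Capitals mark a match, on either strand, to the TATA box core TATAAA, to the CCAAT box, to the GC box GGGCGG or to the E box of clock factors CACGTG.
Ide: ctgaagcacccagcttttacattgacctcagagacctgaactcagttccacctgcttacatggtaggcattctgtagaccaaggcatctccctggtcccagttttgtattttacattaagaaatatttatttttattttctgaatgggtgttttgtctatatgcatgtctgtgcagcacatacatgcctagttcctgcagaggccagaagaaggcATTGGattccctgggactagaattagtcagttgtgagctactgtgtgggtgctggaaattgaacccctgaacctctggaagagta
Fgfbp3: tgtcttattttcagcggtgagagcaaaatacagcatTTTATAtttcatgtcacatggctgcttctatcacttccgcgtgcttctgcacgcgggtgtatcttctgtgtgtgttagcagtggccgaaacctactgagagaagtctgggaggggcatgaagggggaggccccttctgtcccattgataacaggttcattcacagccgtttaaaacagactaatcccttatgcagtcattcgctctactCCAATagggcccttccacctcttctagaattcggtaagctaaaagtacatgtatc
Btaf1: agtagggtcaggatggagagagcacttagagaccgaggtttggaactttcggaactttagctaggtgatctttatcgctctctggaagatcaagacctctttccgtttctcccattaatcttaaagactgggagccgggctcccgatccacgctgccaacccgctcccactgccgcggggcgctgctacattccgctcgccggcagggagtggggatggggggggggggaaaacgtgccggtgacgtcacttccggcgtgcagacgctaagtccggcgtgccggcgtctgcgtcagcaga
The *Ide* window held 1 CCAAT box match, read on the opposite strand. The *Fgfbp3* window held 1 CCAAT box match and 1 match to the TATA box core on the opposite strand, and the *Btaf1* window held none of the 4 motifs. Of 32851 promoters of the same length, 37.4% held the CCAAT box, 13.6% the TATA box core, 35.7% the GC box and 7.15% the E box, and no 2 matches in the printed windows overlapped. The *Ide* window was 44.0% G and C with 0 CG pairs, that of *Fgfbp3* 46.7% with 9 and that of *Btaf1* 60% with 25, against a median over all promoters of 52.7% and 7. The RefSeq start of *Ide* lies 3931 bases upstream of the start of the protein-coding transcript Ide-201 in GENCODE M21, and which start the cornea uses was not measured. A promoter was found in the RefSeq table for 7 of the 8 genes. *Hectd2* had none.

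The libraries held 6699383 to 10762360 reads on genes, and pairs of the same age differed by more than sampling noise (chi-square per degree of freedom 11.3 to 107.2 over 40 pairs). Corneal epithelial markers dominated every library, with the summed normalized count of 8 markers between 385500 and 494800 and *Krt12*, the corneal keratin, between 203600 and 285900. The summed count of 8 stromal keratocyte markers was 3206 to 5870 in the 2-month, 2284 to 3284 in the 12-month, 2445 to 3750 in the 18-month and 2021 to 3384 in the 24-month libraries. No keratocyte marker was at 0 in any group. The 6 immune markers summed to 127.9 to 257.1 in the 2-month libraries, against 56.07 to 186.6 over the 3 older groups, with *Cd3e* at 0 in every 12-month and every 24-month library. The 6 conjunctival and goblet cell markers summed to 28440 to 49760 in the 2-month and 24410 to 39990 in the older libraries. Of these 6, 3 passed the filter on low expression. *Spdef* was at 0 in every 12-month and every 18-month library, and *Muc5ac* in every 12-month library. The 4 melanocyte markers summed to as much as 952.5 in a 12-month library, against a median of 82.17 in that group and at most 111.7 in the other groups. The part of these cells in the results below was not tested, and in bulk tissue fewer cells of a type and less RNA per cell cannot be told apart.

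*Ide* was low in most libraries of the younger ages and high in all libraries of the older ages. In the 2-month mice its normalized counts were 365.0, 717.2, 324.2, 380.4 and 422.1 in replicates 1 to 5. In the 12-month mice they were 672.8, 382.8, 486.4, 381.8 and 353.0. The 18-month mice had 839.1, 663.9, 1007, 947.8 and 851.0, and the 24-month mice 759.6, 831.8, 841.0, 934.6 and 910.1. A single 2-month library, replicate 2, and a single 12-month library, replicate 1, therefore stood at the level of the older mice, and no 18-month or 24-month library stood at the level of the rest of the young ones.

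The mean of *Ide* was 441.8 ± 158 (SD, n = 5) at 2 months, 455.4 ± 132 at 12 months, 855.4 ± 69.3 at 24 months and 861.7 ± 131 at 18 months. In this order the first 2 means differed by less than the SD, as did the last 2. The fitted log2 fold change against the 2-month mice was 0.06 (SE 0.18) at 12 months, 1.01 (SE 0.18; 95% interval 0.63 to 1.38) at 18 months and 1.01 (SE 0.18; 0.63 to 1.38) at 24 months, which is 2.01-fold at both older ages. The libraries of the 24-month mice did not overlap with those of the 2-month mice, which held upward for 1.26% of the genes tested, or with those of the 12-month mice (1.5%). The 18-month libraries overlapped with both younger groups. The plot of the normalized counts by age shows these levels for all 8 genes.

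**Figure D1:**
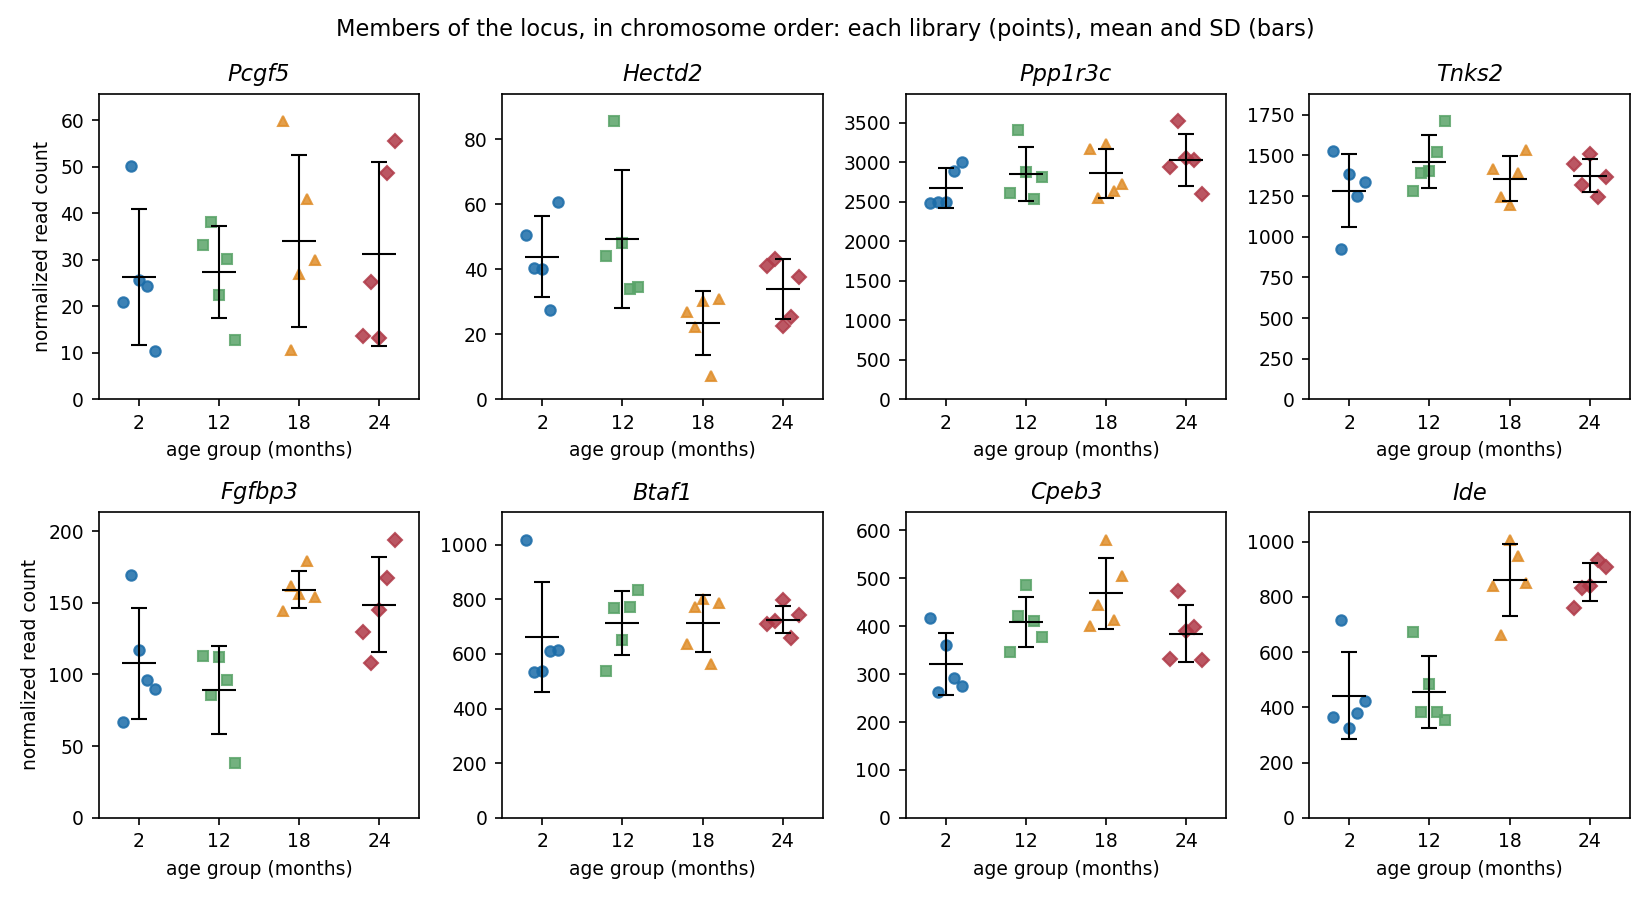
Normalized read counts (y axis, starting at 0) of the 8 genes by age group in months (x axis), one point per library, with the mean and SD of 5 libraries as bars. *Ide* runs from 324.2 to 717.2 at 2 months and from 759.6 to 934.6 at 24 months, while *Ppp1r3c* and *Tnks2* keep about the same level at all ages.

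In the order of all 20 libraries, the widest step of *Ide* lay between 486.4 (12-month replicate 3) and 663.9 (18-month replicate 2), a gap of 0.45 on the log2 scale or 1.36-fold. The counting intervals of these neighbours (95%, exact Poisson) were 443 to 533 and 610 to 721 and did not overlap. These intervals cover counting error only. Below the step stood 8 libraries, 4 of the 2-month and 4 of the 12-month mice, and above it 12. The gap took 27.4% of the range of *Ide*. Among the genes tested, 1.14% had a gap at least as wide a share of their range with 4 or more libraries on each side.

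*Fgfbp3* followed a similar order of libraries without such a step. Its normalized counts were 66.87, 169.4, 116.9, 96.42 and 90.12 in the 2-month mice and 113.1, 85.5, 112.5, 96.2 and 38.23 in the 12-month mice. They were 143.9, 161.9, 156.4, 179.2 and 153.8 in the 18-month mice and 129.7, 108.1, 144.7, 167.1 and 193.9 in the 24-month mice. The 2-month library that was high in *Ide*, replicate 2, was also the highest of its age in *Fgfbp3*, and 12-month replicate 1 was the highest of its age by a margin of under 1 normalized count.

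The 18-month values of *Fgfbp3* did not overlap with the 12-month values (1.13% of the genes tested did not overlap there, in either direction), but they did overlap with the 2-month values. Its means were 89.1 ± 30.7 at 12 months, 107.9 ± 38.7 at 2 months, 148.7 ± 33.2 at 24 months and 159.0 ± 13.0 at 18 months (SD, n = 5 each), and in this order neighbours differed by less than the larger SD, save for the step between 2 and 24 months. The log2 fold change against the young mice was -0.30 (SE 0.27) at 12 months, 0.62 (SE 0.27; 95% interval 0.06 to 1.17) at 18 months and 0.50 (SE 0.27; -0.06 to 1.05) at 24 months. The libraries held 30 to 226 reads of *Fgfbp3*, against 277 to 1268 of *Ide*, so that a value of *Fgfbp3* is the less precise of the pair. Its widest step set apart only 12-month replicate 5. The widest step with at least 4 libraries on each side took 7.09% of its range, and 86.3% of the genes tested had one as wide.

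Of the 8 libraries lowest in *Ide*, 7 were also among the 8 lowest in *Fgfbp3*. The exceptions were 2-month replicate 3, the lowest of all in *Ide* but at 116.9 in *Fgfbp3*, and 24-month replicate 2, at 831.8 in *Ide* but 108.1 in *Fgfbp3*. Of the other 11287 genes tested, 0.39% shared 7 or more of these libraries, and the genes had been listed for this pattern. The *Fgfbp3* ranges of the 8 libraries (38.23 to 116.9) and of the other 12 (108.1 to 193.9) overlapped. In the same count *Pcgf5* shared 5 libraries, *Btaf1* and *Cpeb3* 4 each, *Ppp1r3c* 3, *Tnks2* 2 and *Hectd2* 1. Of the annotated neighbours outside the list, *March5*, which encodes a ubiquitin ligase of the mitochondrial outer membrane, and *Kif11*, a mitotic kinesin on the other side of *Ide*, shared 3 each.

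**Figure D2:**
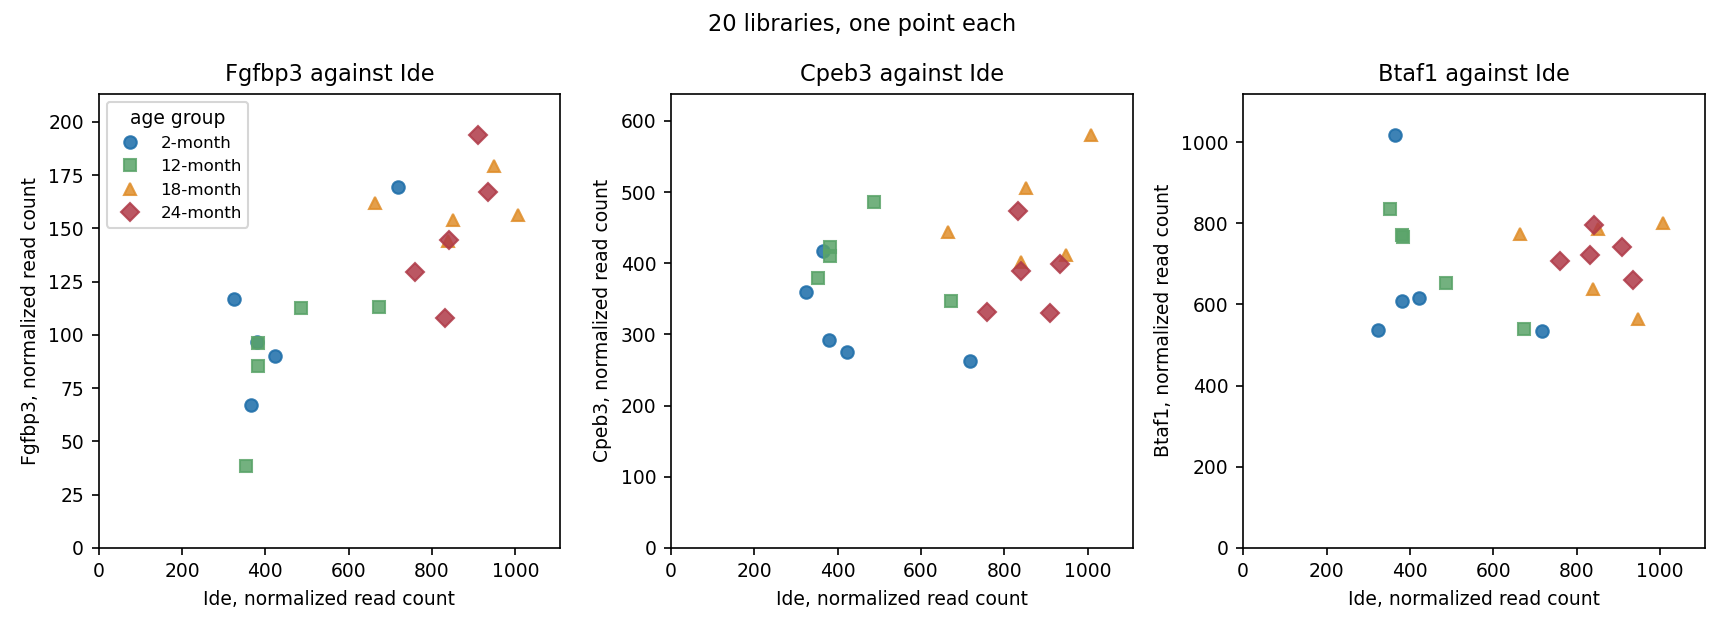
Normalized read counts of *Fgfbp3*, *Cpeb3* and *Btaf1* (y axes) against that of *Ide* (x axes), one point per library with colour and shape for the age group, all axes from 0. *Fgfbp3* is high where *Ide* is high, whereas *Btaf1* and *Cpeb3*, which lie between the pair on the chromosome, have widely overlapping ranges on both sides of the step in *Ide* (*Btaf1* 536.1 to 1018 and 535.1 to 799.6, *Cpeb3* 275.1 to 485.4 and 262.3 to 580.4).

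Across all 20 libraries, Pearson's r of the log2 values of *Fgfbp3* and *Ide* was 0.781 and Spearman's rho 0.783, the 6th highest r among the 11287 other genes. The pair was listed for being low in the same libraries, so r and its rank are a description. The points share their size factors and the age groups, and the range of the middle 90% of genes was -0.516 to 0.521. The r was 0.866 without the 2 libraries farthest from the median of *Ide*. These were 12-month replicate 5 and 2-month replicate 3, which was low in *Ide* but at 116.9 in *Fgfbp3*, so that an exception was left out. On the deviations from the age means r was 0.611. This lay above the middle 90% of genes in their r with *Ide* (-0.501 to 0.494). It lay inside the middle 90% of genes in their r with *Fgfbp3* (-0.636 to 0.672). Among the 8 libraries below the step in *Ide* r was 0.312, and among the 12 above it 0.398, lower on each side than over both. The split was made on *Ide* itself, and the narrower range on each side lowers r by construction, so nothing is read from this. For the genes between the pair, r with *Ide* over the 20 libraries was -0.083 for *Btaf1*, 0.262 for *Cpeb3* and 0.017 for *March5*. For the genes beyond *Fgfbp3* it was -0.304 for *Tnks2*, 0.233 for *Ppp1r3c*, -0.496 for *Hectd2* and 0.355 for *Pcgf5*, all within that middle range, and for *Kif11* it was -0.134. On the deviations from the age means, where the middle 90% of genes ran from -0.501 to 0.494, r with *Ide* was -0.717 for *Tnks2* and -0.506 for *Btaf1*, both below that range, and 0.492 for *Pcgf5*. Over the 18- and 24-month libraries alone (n = 10) it was 0.333 for *Fgfbp3* and 0.678 for *Pcgf5*.

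**Figure D3:**
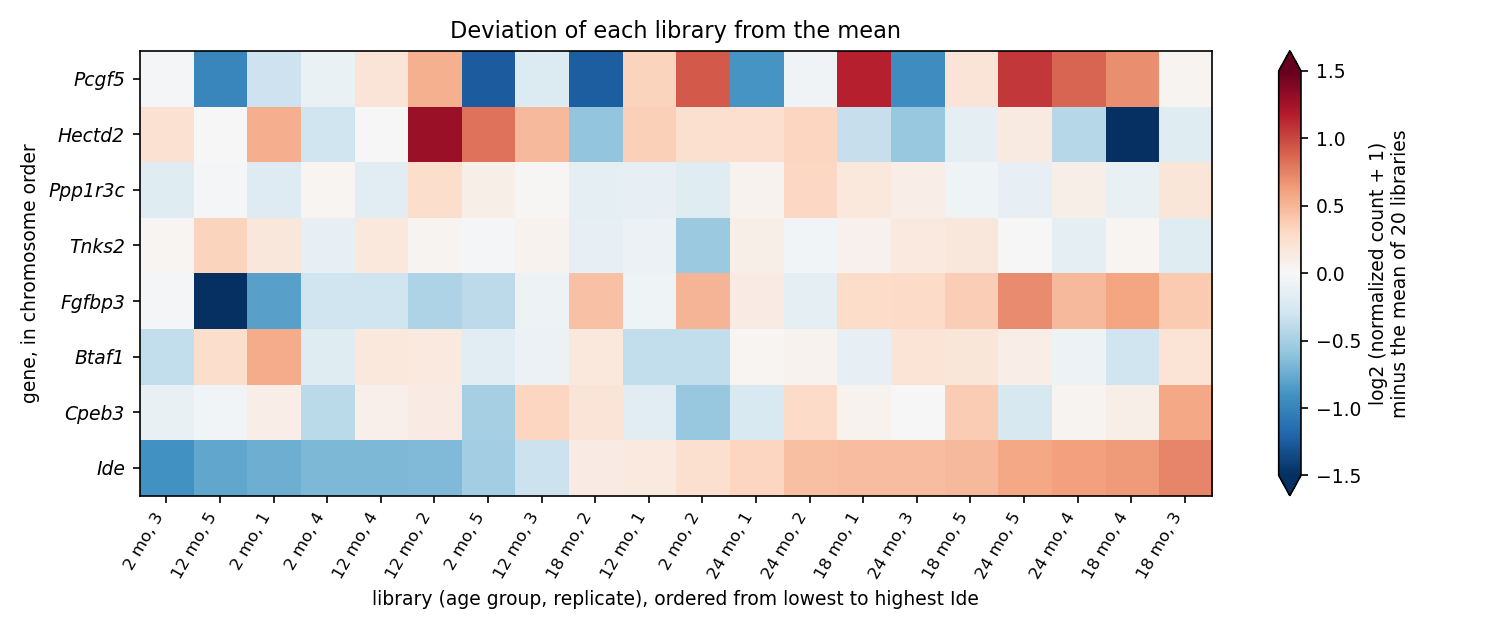
Deviation of each library (columns, ordered from lowest to highest *Ide*) from the mean of the 20 libraries, on the log2 (normalized count + 1) scale, for the 8 genes in chromosome order (rows). *Fgfbp3* turns from blue to red along the order of *Ide* with a few exceptions. *Tnks2*, *Btaf1* and *Cpeb3* do not follow that order.

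None of the 6 genes around the pair passed the threshold for a change with age. *Btaf1*, an ATPase that removes TATA-binding protein from DNA, had means of 662.7 ± 202, 713.1 ± 118, 712.2 ± 105 and 725.4 ± 49.9 at 2, 12, 18 and 24 months (SD, n = 5 each). Its highest value, 1018, was in 2-month replicate 1, which was low in *Ide*. *Cpeb3*, an RNA-binding regulator of translation, had means of 321.2 ± 65.2, 408.5 ± 52.1, 468.6 ± 74.6 and 384.5 ± 59.0, with log2 fold changes of 0.36, 0.55 and 0.27 (SE 0.16 each). *Cpeb3* thus stood at its 24-month level in the 12-month mice, in which 4 of 5 libraries were low in *Ide*.

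*Tnks2*, a tankyrase that attaches poly(ADP-ribose) to its targets, ranged from 926.3 to 1710 over the 20 libraries. *Ppp1r3c*, which targets protein phosphatase 1 to glycogen, ranged from 2484 to 3521. Their log2 fold changes against the young mice lay between 0.09 and 0.20, with SEs of 0.12 and 0.11. The library of the younger ages that was highest in *Ide*, 2-month replicate 2, was the lowest of all 20 in *Tnks2* (926.3), in *Btaf1* (535.1) and in *Cpeb3* (262.3).

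*Hectd2* and *Pcgf5* were read too thinly for a firm statement. *Hectd2*, a ubiquitin ligase of the HECT family, had 8 to 65 reads per library, and its means were 43.87 ± 12.4, 49.26 ± 21.2, 23.48 ± 9.74 and 33.93 ± 9.34 at 2, 12, 18 and 24 months. It was lower in every 18-month than in every 12-month library (1.13% of the genes tested did not overlap there, in either direction). The log2 fold change of *Hectd2* at 18 months against 2 months was -0.98 (SE 0.40; 95% interval -1.80 to -0.15), opposite in sign to that of *Ide*. *Pcgf5*, a subunit of a Polycomb repressive complex, had 9 to 67 reads and spread from 10.43 to 59.76, with as wide a range within an age as between ages.

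Of the 8 genes, all passed the filter on low expression, and *Ide* was the only one among the differentially expressed genes (DEGs), at 18 and at 24 months and in the upward direction. By limma, with an adjusted p under 0.05 and a change of at least 1.2-fold, the DEGs against the young mice were 0.532% of the 11288 genes tested in the 12-month, 0.673% in the 18-month and 0.78% in the 24-month group, and 0.337% and 0.31% were upward DEGs at 18 and 24 months. *Ide* was also higher in the 24-month than in the 12-month mice, by a log2 difference of 0.95 (0.106% of genes upward), but this call was lost without any 1 of the 5 24-month libraries, without 12-month replicate 2, 4 or 5, without a filter and with the replicate number as a block. The difference of the 18-month from the 12-month mice had the same size (0.95, SE 0.18) and did not pass the threshold over all genes. The median log2 fold change of the 8 genes was 0.13, 0.23 and 0.17 at the 3 ages, beside a median over all genes within 0.01 of 0. As the genes were listed from these values, nothing is read from the count.

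The window from 1000000 bases before *Pcgf5* to 1000000 bases after *Ide* held 19 other annotated genes, of which 7 passed the filter: *Rpp30*, *March5*, *Kif11*, *Exoc6*, *Myof*, *Cep55* and *Fra10ac1*. By limma none of them was a DEG at 12, 18 or 24 months against the young mice, with 2, 0 and 0 of them at an unadjusted p under 0.05 and 0 called by voom on the reads. *March5*, inside the interval between the pair, had means of 446.1 ± 51.6 at 2 months and 396.8 ± 61.3 at 24 months (SD, n = 5), with a log2 fold change of -0.17 (95% interval -0.47 to 0.12; limma adjusted p = 0.736). *Kif11*, the first gene beyond *Ide*, changed by -0.12 (95% interval -0.65 to 0.41; limma adjusted p = 0.93) at 24 months. The 2 genes at an unadjusted p under 0.05, both at 12 months, were *Myof*, which encodes a membrane repair protein (log2 difference 0.30, limma adjusted p = 0.337), and *Cep55*, a gene of cell division (-1.90, limma adjusted p = 0.292). The remaining 12 genes had at most 14 reads in any library. Of these, *A330032B11Rik* and *4931408D14Rik* lie between *Fgfbp3* and *Ide*, and *Hhex* and *1700122C19Rik* just beyond *Ide*.

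**Figure D4:**
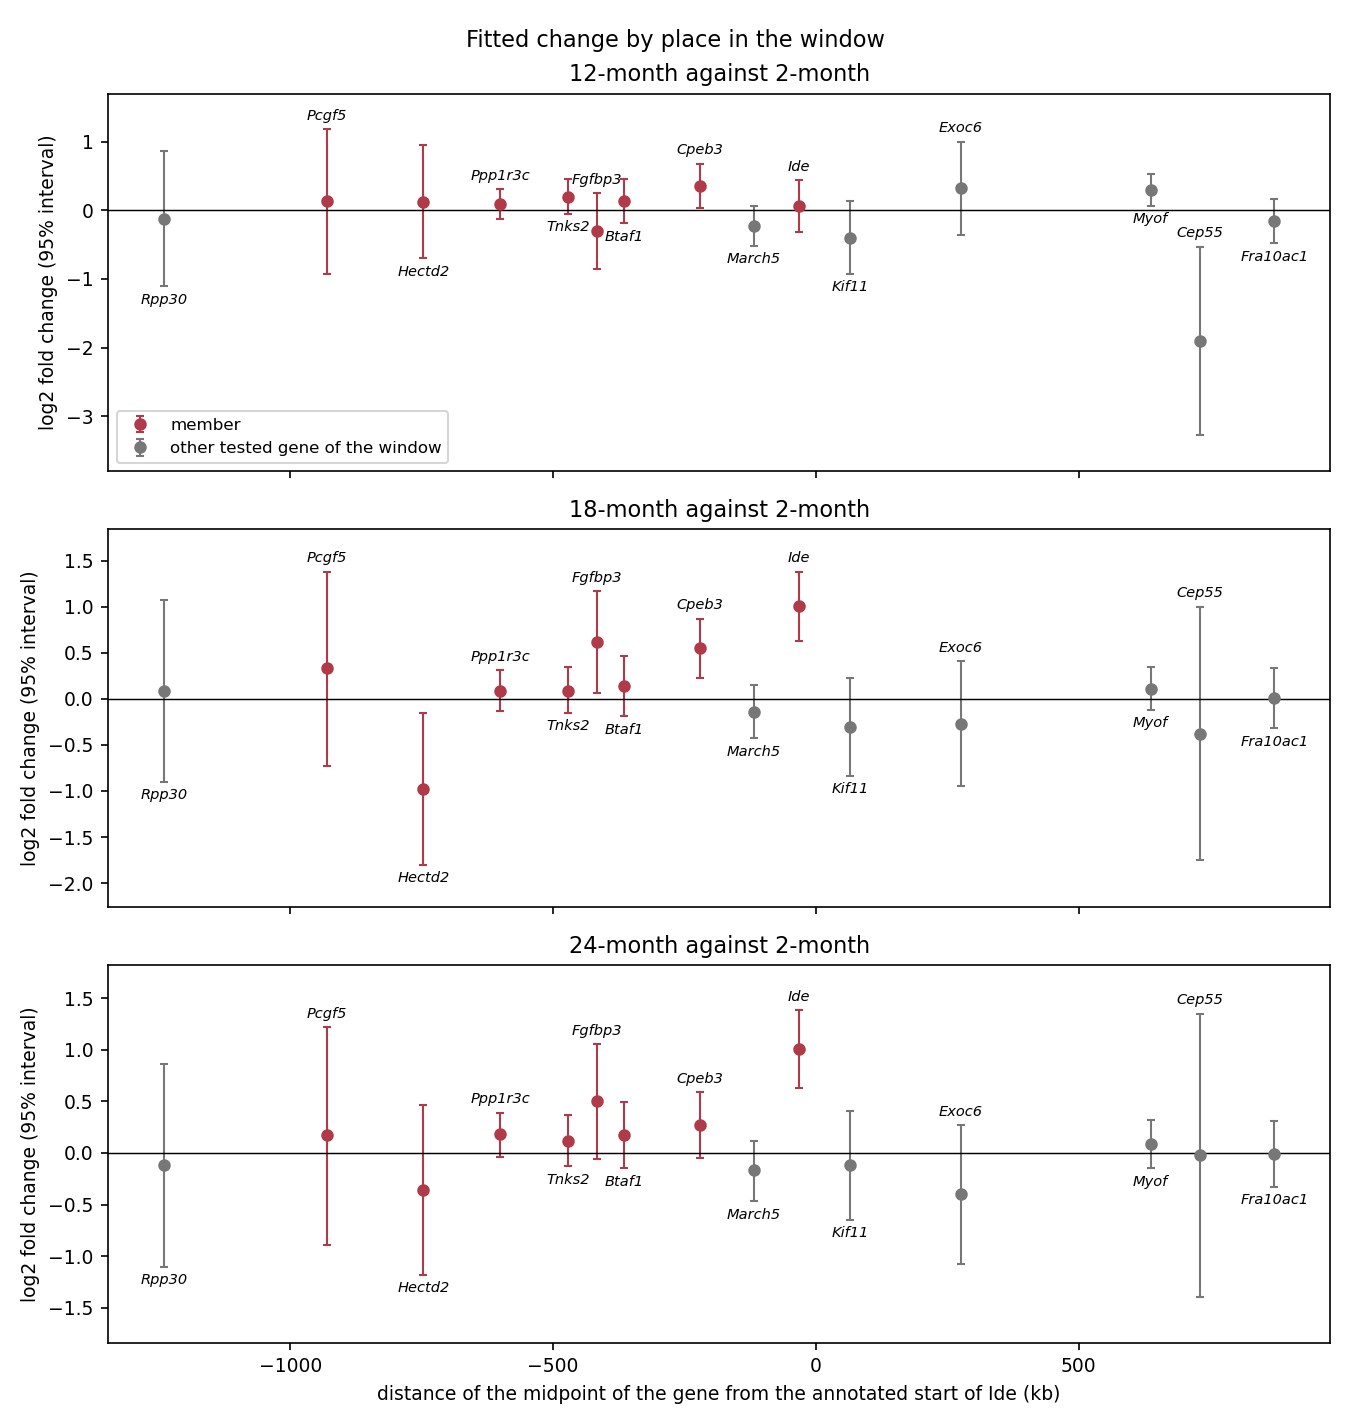
Fitted log2 fold change with its 95% interval (y axis) for the 8 listed genes (red) and the 7 other tested genes of the window (grey), against the distance of the midpoint of each gene from the annotated start of *Ide* in kb (x axis), for the 3 older ages against 2 months. At 18 and 24 months *Ide* stands at 1.01, *Kif11* and *March5* on its sides stand below 0, and *Fgfbp3* stands at 0.62 and 0.50. Between the pair, *Cpeb3* stands at 0.55 and 0.27 and *Btaf1* at 0.14 and 0.17.

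No gene of the pathways of *Ide* and *Fgfbp3* passed the threshold. Of 18 genes of insulin and IGF signalling and of peptide degradation, 14 were tested and 0 were DEGs by limma or voom at any age, with 0, 1 and 2 at an unadjusted p under 0.05 at 12, 18 and 24 months. Their median log2 fold change was -0.11, -0.01 and -0.13. *Irs2*, an adaptor of the insulin receptor, went from 190.3 ± 38.9 at 2 months to 100.7 ± 17.1 at 24 months (SD, n = 5), a log2 difference of -0.90 (SE 0.26) that missed the threshold (limma adjusted p = 0.111). *Insr*, the insulin receptor, had 147.3 ± 37.2 and 135.5 ± 50.5, and *Nrd1*, which encodes a metalloprotease of the same family as *Ide*, 1143 ± 474 and 827.0 ± 155.

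Of 21 genes of FGF binding, ligands, receptors and feedback, 13 were tested and 0 were DEGs by limma or voom, with 2, 1 and 3 at an unadjusted p under 0.05 and medians of -0.21, -0.01 and -0.07. *Fgfbp1*, which encodes a relative of the *Fgfbp3* product, had 999.6 ± 180 at 2 months and 795.6 ± 70.6 at 24 months (log2 difference -0.32, SE 0.14; limma adjusted p = 0.443). *Spry2*, an inhibitor of receptor tyrosine kinase signalling, had 142.5 ± 23.8 and 191.7 ± 9.77 (0.44, SE 0.17; limma adjusted p = 0.355). *Fgfr1*, an FGF receptor read at low depth, had 21.56 ± 3.25 and 10.89 ± 18.3 (-2.04, SE 0.88; limma adjusted p = 0.42), and 7.713 ± 7.43 at 12 months (-1.98, SE 0.88; limma adjusted p = 0.461). Of 21 paralogs and partners of the neighbouring genes, 18 were tested and 0 were DEGs by limma or voom, with 1, 2 and 2 at an unadjusted p under 0.05 and medians of 0.02, -0.06 and 0.03. *Ppp1r3f*, a glycogen-targeting relative of *Ppp1r3c*, had 23.62 ± 9.69 at 2 months and 5.487 ± 6.41 at 12 months (limma adjusted p = 0.0989), and was a DEG without 12-month replicate 1 or without 12-month replicate 3.

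Of 10 genes known to differ among C57BL/6 lines, 9 were in the table, 3 were tested and 0 were DEGs by limma or voom, with 0, 0 and 1 (*Cyfip2*) at an unadjusted p under 0.05 and medians of 0.07, -0.07 and -0.22. *Nnt*, of which C57BL/6J mice lack internal exons, had 42.89 ± 13.2, 28.81 ± 9.14, 34.77 ± 22.1 and 37.11 ± 15.2 at the 4 ages. Reads from the 3′ end lie outside that deletion, and these values do not check the substrain. *Entpd4* was listed at 0 in every library and *Entpd4b* was not in the table.

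Among the 5 genes most like *Ide* across the 20 libraries, by Pearson's r of the log2 values, were *Adam28* (0.86), *Rnf149* (0.826), *Abl1* (0.806) and *Amotl2* (0.79), on chromosomes 14, 1, 2 and 9. *Adam28* encodes a membrane metalloprotease, and its normalized counts were 345.3 to 418.3 in the 2-month mice, 410.4 to 696.7 in the 12-month mice, 561.8 to 890.6 in the 18-month mice and 602.4 to 751.8 in the 24-month mice. Like *Ide*, *Adam28* was highest among the 12-month mice in replicate 1 (696.7). Unlike *Ide*, it was at the level of its group in 2-month replicate 2 (407.7). *Adam28* and *Rnf149* were DEGs at 18 and 24 months by limma, and their order of libraries is in part the order of the ages. On the deviations from the age means, r with *Ide* was 0.548 for *Adam28*, 0.408 for *Rnf149*, 0.563 for *Abl1* and 0.582 for *Amotl2*. For *Fgfbp3* it was 0.611.

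The 5 genes most like *Fgfbp3* were other genes: *Nme7* (0.94), *Mvb12b* (0.887), *Spcs1* (0.879), *Il10rb* (0.86) and *Kdelr2* (0.848), none of which lies on chromosome 19 or was a DEG by limma at 12, 18 or 24 months against the young mice. *Ide* came 93rd in this order. Within ages, *Fgfbp3* moved with the main pattern of variation between libraries of the same age, a component that held 16% of the variance within ages over all tested genes (r = 0.759 for *Fgfbp3*, 0.545 for *Ide*, 0.647 for *Pcgf5*, -0.77 for *Btaf1*, n = 20, the component being built from the same libraries). With that component removed, r of *Fgfbp3* with *Ide* over the 20 libraries was 0.785, beside 0.781 before, and that of *Btaf1* 0.187. The removal keeps the age means, so the differences between ages stay in this r by construction. It therefore cannot tell how much of the likeness within ages (r = 0.611) goes with the component, which was not tested.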

How the data were processed

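The data were 3′ RNA sequencing of 20 libraries. The authors' methods name cutadapt for trimming, STAR with GRCm38 for alignment, HTSeq for the gene counts and DESeq2 for scaling. The authors deposited log2 values, each the logarithm of the count divided by a size factor plus 1, in 4 tables whose 736560 shared values did not differ (0 differences). The tables also hold results of the authors' own tests (mean, fold change, p), which were not used. The deposited values were turned back into counts, and 100% came out as whole reads (within 0.01). This gave 6699383 to 10762360 reads per library and size factors of 0.7603 to 1.3343. Of 24552 genes, 7624 had no read. Intervals on counts are exact Poisson.

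Genes averaging at least 10 normalized counts (11288) were fitted over the 4 ages with limma 3.58.1 (R 4.3.3; moderated test with a mean trend, two-sided, Benjamini-Hochberg adjusted over all tested genes). DEGs had an adjusted p under 0.05 and at least a 1.2-fold change, the thresholds of the study. Fold changes are differences of means on the log2 (normalized count + 1) scale. The added 1 shrinks those of low genes, but libraries near 0 can make them larger than the ratio of the mean counts. *Cep55* at 12 months, for example, changed by -1.9 on this scale, with mean counts of 48.34 at 2 months and 22.0 at 12 months. On simulated counts for 24-month against 2-month (11189 genes), 55.2% of genes changed 2-fold and 77.0% of those changed 3-fold were called, and 2.04% of calls were unchanged genes. Python 3.11.15, pandas 2.3.3, numpy 2.4.6, scipy 1.17.1 and matplotlib 3.10.9 did the rest. Positions and promoters came from RefSeq (GRCm38.p6), by NCBI gene identifier.

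The members and lists were chosen with earlier results of these data known. Genes named were the 8 members, those between and next to *Fgfbp3* and *Ide*, DEGs of the window and lists, and the 5 most like *Ide* (1 of which is not reported here) and *Fgfbp3*; *Adamdec1* and the list examples were chosen after their values were seen. Alternatives were no filter or a filter at 50, quantile normalization, a fit of 2 groups at a time, a block for the replicate number, voom on the recovered counts with trimmed-mean scaling, pseudocounts of 0.1 and 10, the 15 aged libraries alone, deviations from age means and leaving out each library. The first component of the within-age deviations, pseudocounts for numbers of DEGs and the alternatives for 24 against 12 months were added after seeing the data.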

Additional observations from a re-analysis of the deposited data

Results flagged for a closer look

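In a group of 5 libraries, 3 values lay farther from their neighbours than Dixon's 95% limit, among 32 groups examined (8 genes at 4 ages), of which chance alone flags about 1 in 20. *Ide* at 717.2 in 2-month replicate 2 was above the other young libraries. *Btaf1* at 1018 in 2-month replicate 1 and *Hectd2* at 85.5 in 12-month replicate 2 were also high.

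The change against the young mice differed between ages for *Ide*, which was higher at 24 than at 12 months by 0.95 on the log2 scale, given as a description because the gene was listed for its values. The call was lost without 8 of the 20 libraries in turn.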

How the results depend on the processing

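Under the 81 alternatives for each gene, the log2 fold changes of the 8 genes moved by less than the SD between libraries, or, for *Ide* at 18 and 24 months, kept direction and call. *Ide* remained a DEG at 18 and at 24 months without each of the 20 libraries (0.91 to 1.2 at both ages) and under all 9 other settings. As *Ide* was listed for its values in these same libraries, its calls here are a description and no added support. No window gene became a DEG against the young mice under these settings. Numbers of DEGs moved more. At 12 months there were 60, against 39 with only the 2 groups compared, 38 by voom and 170 with the first component as a covariate, and 38 to 96 without 1 library (38 without 2-month replicate 5, 39 without 2-month replicate 3, 96 without 2-month replicate 1). At 18 months there were 76, against 122 with the component and 61 to 81 without 1 library. At 24 months there were 88, against 278 with the component and 54 to 96 without 1 library (54 without 24-month replicate 3, 57 without 24-month replicate 4). From 12 to 24 months there were 22, against 0 with no filter, 35 with a filter at 50 and 654 with the component, and 0 to 84 without 1 library (0 without 12-month replicate 5 or without 24-month replicate 1, 2, 3 or 5, and 84 without 2-month replicate 1). In that comparison *Ide* was called without 12 of the 20 libraries and under 6 of 8 other settings, with log2 differences of 0.87 to 1.1. The component was built from the same deviations within ages, so that by construction it leaves the folds and narrows the spread. With it, 2 genes of the insulin and peptide degradation list were DEGs at 24 months (*Irs2*, *Nrd1*) and 1 of the paralogs at 12 months (*Ppp1r3f*), for which leaving out 1 library gave 0 to 1.

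Likeness to *Ide* moved for the neighbours. On deviations from the age means r was 0.611 for *Fgfbp3*, 0.492 for *Pcgf5*, -0.0657 for *Hectd2*, -0.0756 for *Ppp1r3c*, -0.717 for *Tnks2*, -0.506 for *Btaf1* and -0.288 for *Cpeb3*, so that the sign turned for *Ppp1r3c* and *Cpeb3*. In the 15 aged libraries alone it was 0.106 for *Ppp1r3c*, -0.52 for *Tnks2*, -0.275 for *Btaf1* and 0.0997 for *Cpeb3*. With the first component removed and the age means kept, it was 0.242 for *Pcgf5* and 0.187 for *Btaf1*. Leaving out 1 library gave 0.758 to 0.836 for *Fgfbp3* and -0.243 to 0.0901 for *Btaf1*. The cause was not tested.

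Replicate numbers did not pair the samples: same-numbered libraries of different ages deviated with r of -0.303 to 0.159, and 1 of 20 correlated best with its own number. With the replicate number as a block there were 57, 72 and 85 DEGs against the young mice, and 11 from 12 to 24 months, *Ide* not among them. Depth limits *Hectd2* and *Pcgf5* most.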

Other observations

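*Adamdec1*, a metalloprotease gene beside *Adam28* on chromosome 14, had normalized counts of 24.66 to 40.26 in the 2-month mice, 22.05 to 91.92 in the 12-month mice, 45.74 to 105.6 in the 18-month mice and 48.94 to 123.8 in the 24-month mice. Its log2 fold change was 1.18 (SE 0.36) at 18 months and 1.16 (SE 0.36) at 24 months, and neither passed the threshold (limma adjusted p = 0.207 and 0.161). As with *Ide* and *Adam28*, its highest 12-month value was in replicate 1 (91.92).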
